A study of Homo sapiens with 2 samples.

Results

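The ubiquitin ligase genes of the TRIM, RNF and MARCH families were described in A549 cells, an established human lung adenocarcinoma cell line, 24 hours after transfection with a control siRNA (siCONTROL) or with an siRNA against p62/SQSTM1 (siP62). They were chosen by symbol alone, as genes whose symbol begins with TRIM or RNF and a digit, or with MARCH, on probe sets with a single gene symbol in the platform annotation. This gave 138 of the 14884 genes named on the array, of which 74 were RNF, 61 TRIM and 3 MARCH genes. By RefSeq, 131 of the 138 were protein coding and 7 were noncoding transcripts or pseudogenes that share a ligase gene's name. Each group was read on 1 Affymetrix whole-transcript array made from 100 ng of total RNA, so no spread between replicates exists, no test was possible and every difference below is between 2 arrays. Values are log2 probe set values, and a difference is the siP62 value minus the siCONTROL value. Where values are given in pairs, the siCONTROL value comes first and the siP62 value follows. The probe set with the highest mean over both arrays stood for a gene with several probe sets.

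Ubiquitin ligases are the last enzymes of a cascade in which an E1 enzyme activates ubiquitin, an E2 enzyme carries it and the ligase selects the protein to be modified. Ligases with a RING domain bring the loaded E2 and the substrate together, and the TRIM proteins add a B-box and a coiled coil to the RING. Many TRIM proteins act in antiviral defence, many RNF proteins in DNA repair, endoplasmic reticulum quality control and receptor turnover, and MARCH proteins on membrane proteins. The protein p62 binds ubiquitin chains and delivers the tagged cargo to autophagosomes, which places it downstream of such ligases, and several of them bind or modify p62 itself.

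Of the 138 genes, 92 were measured, meaning that at least 1 of a gene's values reached 5.35, which is the median of all values of named probe sets. The measured genes were 52 of the 74 RNF genes, 38 of the 61 TRIM genes and 2 of the 3 MARCH genes. On both arrays 84 of them lay above this threshold. In 4 genes (TRIM2, TRIM9, RNF144B and RNF146) the siCONTROL value lay below it, and in 4 others (RNF216P1, MARCHF9, TRIM72 and TRIM40) the siP62 value did. TRIM2 (5.38 in siP62) and TRIM72, a muscle membrane repair protein gene (5.41 in siCONTROL), lay just inside the threshold. TRIM7 (5.34 in siP62) and TRIM54, a muscle RING finger gene (5.20 in siCONTROL), lay just outside it. The levels of different probe sets depend on their probes as well as on the RNA, so the genes were not ranked by level.

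SQSTM1, the target of the siRNA, had a log2 value of 8.64 in siCONTROL and 7.30 in siP62, a difference of -1.34. Over all 7896 measured genes the median difference was 0.04 and the robust SD of the differences (scaled median absolute deviation over genes) was 0.22, from 0.15 to 0.39 in 20 bins of genes of like level. This SD describes genes on 2 arrays and is no error between replicates. Of 13 epithelial markers that check the cell line, 11 were named and 8 measured, with 6 higher and 2 lower in siP62. KRT18 (11.95 and 11.97), KRT7 (8.02 and 8.09) and EPCAM (7.38 and 7.59) were among the higher ones. The lower ones were the surfactant genes SFTPD (5.85 and 5.27) and SFTPB (5.66 and 5.30), both with siP62 values below the threshold. NKX2-1, SFTPC and NAPSA, which mark the alveolar lineage, lay below it on both arrays. Of the markers of other cell types, only 3 of 8 leukocyte, 2 of 7 fibroblast and 4 of 6 endothelial genes were named, so the others were not read. Measured were CD68 (8.48 and 8.42) and CD14 (5.98 and 5.94) of the leukocyte list. The fibroblast gene LUM (5.02 and 5.49) and the endothelial gene CLDN5 (4.84 and 5.47) were measured as well. PECAM1, VWF, KDR, DCN and LYZ lay below the threshold. The part of any cell type in the differences below was not tested. In bulk RNA, fewer cells of a kind and less RNA per cell cannot be told apart.

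Promoter sequence is shown for the genes around which the account below turns, so that the differences can be read beside the regulatory sequence. RefSeq promoters of GRCh38.p14, 250 bases before to 50 bases after each gene start, were found for 107 of the 138 genes and covered 154 start sites. They were searched on both strands for GAAANNGAAA, the core of the interferon-stimulated response element, which drives many TRIM genes, and for TGACNNNGC, the core of the antioxidant response element bound by NRF2, a factor that p62 frees from its repressor KEAP1. The interferon core was found in 11 of the 154 promoters (7.14%), against 3.57% of all 35116 promoters of this length. The antioxidant core was found in 23 (14.9%), against 13.3% of all. A match describes the letters only. Shown is an interferon core of each of 4 measured antiviral TRIM genes, with 10 bases on each side, in the direction of the gene. The core is in capitals (on the opposite strand it reads TTTCNNTTTC). TRIM21 and TRIM26 each held a further, overlapping core, which is in capitals only where the cores overlap. The core shown for TRIM21 lies after the gene start.
TRIM5, chr11:5685082-5685111 (minus strand): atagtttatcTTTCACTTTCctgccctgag
TRIM14, chr9:98119229-98119258 (minus strand): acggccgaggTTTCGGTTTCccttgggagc
TRIM21, chr11:4393666-4393695 (minus strand): cttctgagcgGAAACTGAAAgtgaaatagg
TRIM26, chr6:30213575-30213604 (minus strand): ctgatttcagTTTCCATTTCgctgcccctg
TRIM2, whose difference was the highest among the measured ligase genes, held both cores at different ones of its several start sites. The interferon core is shown first and the antioxidant core second, again in capitals. This antioxidant core lies on the opposite strand, where it reads GCNNNGTCA. A further antioxidant core of TRIM2, at another start site, is not shown.
TRIM2, chr4:153151936-153151965 (plus strand): aataaatagaGAAAAGGAAAtaagccgaag
TRIM2, chr4:153152944-153152972 (plus strand): gtctttccctGCACAGTCActtcagcggc
RNF6, the other gene past 1.5-fold, held neither core at any of its listed starts. The 250 bases before the outermost start are shown here.
RNF6, chr13:26222372-26222621 (minus strand): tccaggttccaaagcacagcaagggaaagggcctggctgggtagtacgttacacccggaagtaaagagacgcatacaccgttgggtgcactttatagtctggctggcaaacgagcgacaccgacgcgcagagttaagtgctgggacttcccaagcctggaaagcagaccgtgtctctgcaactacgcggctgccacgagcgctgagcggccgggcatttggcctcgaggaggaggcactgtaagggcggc
These bases are 59.6% G or C, against a median of 58.0% over all promoters and 61.4% over those of the ligase genes. The array does not show which start site is used in A549 cells.

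The 9 measured genes with an interferon core had a median difference of -0.02, with 4 higher, 5 lower and a range from -0.13 to 0.78. The 64 measured genes whose promoters lacked it had a median of 0.04. For the antioxidant core the medians were 0.07 over 15 genes with it and 0.025 over 58 without it. The genes with a core thus lay on both sides of 0. TRIM2 set the upper end of either range.

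Most ligase genes, like most genes on the array, differed little between the arrays. Of all 7896 measured genes, 4378 were higher, 3303 lower and 215 equal in siP62. The 92 measured ligase genes had a median difference of 0.025, beside 0.04 for all measured genes, and 47 were higher, 42 lower and 3 equal. Their robust SD was 0.23, beside 0.22 for all genes, and 77 of the 92 (83.7%) differed by at most 0.25 in either direction, as did 71.9% of all measured genes. The sign of this median depended on the centring, as it was -0.015 once the median of all genes was subtracted, and 44 genes lay above and 48 below the median of all genes. At least 1.5-fold higher were 2 of the 92 (2.17%), RNF6 and TRIM2, against a background of 2.08% of all measured genes. No ligase gene was at least 1.5-fold lower, against a background of 1.60%. Differences beyond 0.32 on the log2 scale were found in 8 genes on the higher side (8.70%, background 11.3%) and in 3 on the lower side (3.26%, background 7.13%). At 2-fold none was higher (background 0.165%) or lower (background 0.228%). The share of ligase genes past 1.5-fold on the higher side was close to the background.

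**Figure D1:**
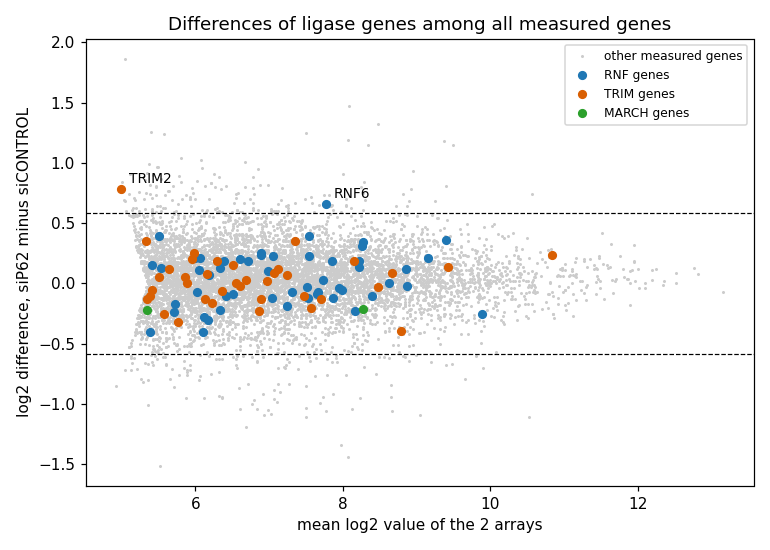
The log2 difference (siP62 minus siCONTROL) of each measured gene is plotted against its mean log2 value over the 2 arrays, with RNF, TRIM and MARCH genes in colour, all other measured genes in grey and dashed lines at 1.5-fold. RNF6 and TRIM2 are the only coloured points above the upper line, and none lies below the lower line.

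RNF6, a RING ligase that modifies the androgen receptor, had a log2 value of 7.44 in siCONTROL and 8.10 in siP62. It was 1.58-fold higher, and 3 of the 395 genes in its level bin had a higher difference. Both values lay well above the threshold, which sets RNF6 apart from TRIM2. TRIM2, a ligase with an NHL repeat domain that ubiquitinates neurofilament light chain, went from 4.60 to 5.38, a difference of 0.78. Its siCONTROL value lay below the threshold and 9 of 395 genes in its bin, where the robust SD was 0.39, had a higher difference, so no fold is given and its place past 1.5-fold is uncertain.

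The other genes at the high end differed by 0.24 to 0.39. RNF25, which acts with RNF14 at stalled ribosomes, went from 7.35 to 7.74, while RNF14 itself lay at 7.96 and 7.92. RNF144B, a p53-induced ligase, went from 5.31 to 5.70, and the siCONTROL value again lay below the threshold. RNF167, a ligase of endosome and lysosome membranes, went from 9.22 to 9.58, with 22 of 395 genes of like level having a higher difference. TRIM65, which activates the RNA sensor MDA5, went from 7.18 to 7.53. TRIM9, a neuronal ligase that binds the netrin receptor DCC, went from 5.15 to 5.50. RNF41, which controls turnover of the receptor ERBB3, went from 8.10 to 8.41. RNF123, the catalytic subunit of the complex that degrades the cell cycle inhibitor p27, went from 6.76 to 7.01. TRIM59, a membrane-anchored TRIM protein, went from 5.86 to 6.11. RNF135, which activates the RNA sensor RIG-I, went from 6.77 to 7.01, and TRIM28, the corepressor of KRAB zinc finger proteins, from 10.71 to 10.95. Beyond 0.32 on the higher side, beside RNF6 and TRIM2, were RNF144B, RNF25, RNF167, TRIM65, TRIM9 and, by 1 of its 2 probe sets, RNF26.

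At the low end the differences ran from -0.40 to -0.22, smaller in size than those of RNF6 and TRIM2. RNF121, a ligase of the endoplasmic reticulum and Golgi, had a log2 value of 6.30 in siCONTROL and 5.90 in siP62 and was 1.32-fold lower. RNF216P1, a transcribed pseudogene of RNF216, went from 5.59 to 5.19, and RNF216 itself from 7.69 to 7.60. The probes of the pseudogene were not checked against RNF216. TRIM25, which ubiquitinates RIG-I and is itself interferon-inducible, went from 8.98 to 8.59 and was 1.31-fold lower, with 17 of 395 genes of like level having a lower difference. TRIM31, a ligase of the antiviral adaptor MAVS, went from 5.92 to 5.60. RNF213, a very large ATPase and ligase active against intracellular bacteria, went from 10.01 to 9.76, with 26 of 394 genes of like level lower. TRIM24, a bromodomain ligase of p53, went from 6.98 to 6.75, and RNF11, a cofactor of the NF-kB inhibitor A20, from 8.28 to 8.05. RNF225 (6.32 and 6.02), the cardiac gene RNF207 (6.25 and 5.97), RNF215 (5.83 and 5.59) and RNF122 (6.44 and 6.22) had like differences. TRIM74 (5.70 and 5.45) has close relatives, against which its probes were not checked. MARCHF9 ended below the threshold, at 5.23.

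**Figure D2:**
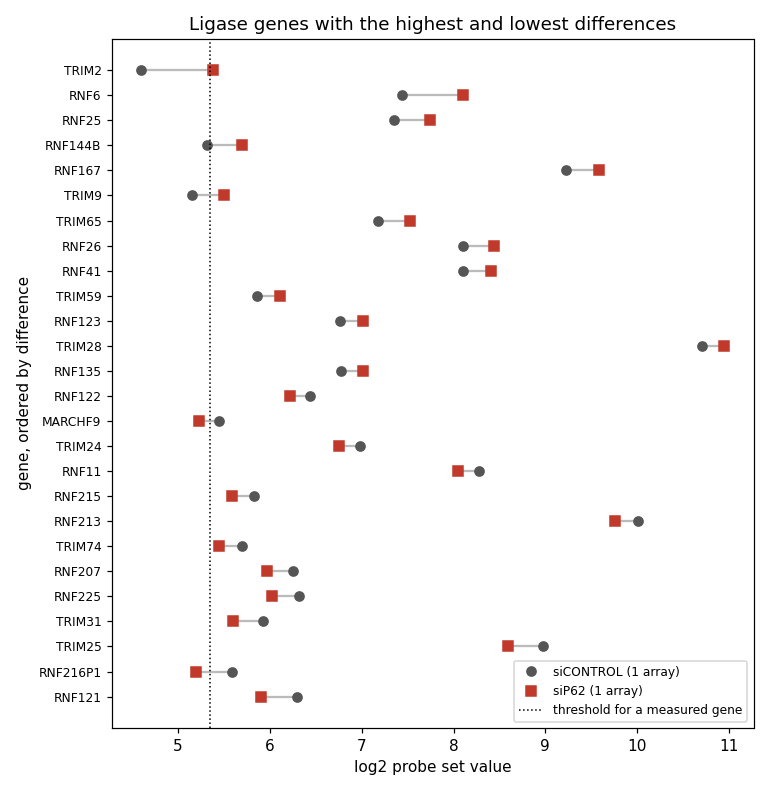
Log2 values of the measured ligase genes with the 12 highest and 12 lowest differences (ties included) are shown for the siCONTROL array (grey circles) and the siP62 array (red squares), ordered by difference, with a dotted line at the threshold of 5.35. The distance between the symbols is largest for TRIM2 and RNF6, and the siCONTROL values of TRIM2, TRIM9 and RNF144B lie left of the line.

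The ligases linked to p62 or to autophagy went both ways. Of 12 genes in the list, 11 were named on the array and 10 measured, with 6 higher, 4 lower and a median difference of 0.095 beside 0.04 for all genes. None of the 10 reached 1.5-fold in either direction (background 2.08% higher and 1.60% lower). RNF26, an endoplasmic reticulum ligase that ubiquitinates p62 to hold vesicles near the nucleus, went from 8.10 to 8.44. RNF166, which ubiquitinates p62 during the capture of bacteria, went from 6.50 to 6.70. RNF185, a ligase of endoplasmic reticulum and mitochondria, went from 6.62 to 6.81. TRIM21, an antibody receptor that ubiquitinates p62, went from 6.44 to 6.59, TRIM32, which acts on the autophagy kinase ULK1, from 7.06 to 7.18, and RNF31, the catalytic subunit of the linear ubiquitin chain complex, from 6.15 to 6.22. On the lower side, TRIM13, an endoplasmic reticulum TRIM protein that binds p62, went from 6.30 to 6.14, and TRIM5, a retroviral restriction factor that binds p62, from 6.20 to 6.07. TRIM44 (8.49 and 8.46) and TRIM16, which acts on damaged lysosomes (6.61 and 6.59), were nearly equal. TRIM55, a muscle ligase that binds p62, lay below the threshold at 3.16 and 3.35.

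RNF26 and RNF185 were each read by 2 probe sets. Those of RNF26 went in opposite directions, with 8.10 and 8.44 in the one that stood for the gene and 6.30 and 6.14 in the other, differences of 0.34 and -0.16. The mean over both was 0.09, below RNF185 (0.275), RNF166 (0.20) and TRIM21 (0.15), so the direction of RNF26 and its place among the p62-linked genes rest on the choice of probe set. Those of RNF185 both were higher in siP62, by 0.19 and 0.36, the second from a siCONTROL value of 4.32 below the threshold.

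Antiviral TRIM genes, which restrict viruses or act in RNA sensing, were spread around the median of all genes. Of 18 in the list, 16 were named and 14 measured, with 9 higher, 5 lower and a median of 0.04. None was past 1.5-fold (background 2.08% higher and 1.60% lower). The 2 ends were TRIM65 (0.35) and TRIM25 (-0.39), whose proteins act on the 2 RNA sensors MDA5 and RIG-I. TRIM38 (7.21 and 7.28), TRIM4 (7.02 and 7.11), TRIM56 (6.96 and 6.98), TRIM14 (5.83 and 5.88) and TRIM68 (6.67 and 6.70) differed by less than 0.10. TRIM26 was at 7.52 and 7.42. TRIM22, an interferon-inducible restriction factor, lay below the threshold at 4.44 and 4.30. TRIM15 lay below it as well, at 4.49 and 4.51.

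The other TRIM groups had few measured genes. Of the 4 corepressors, which bind chromatin through PHD and bromodomain modules, TRIM28 (0.24) and TRIM33, a regulator of SMAD4 (8.62 and 8.71), were higher, TRIM24 was lower and TRIM66 lay below the threshold. Of the NHL and ARF domain group, TRIM2, TRIM32 and TRIM3 (6.39 and 6.33) were measured. Among the microtubule-binding and muscle group, TRIM9 and TRIM67 (5.43 and 5.38) were measured, both near the threshold, and TRIM36, TRIM46, TRIM54 and TRIM55 lay below it. The membrane-anchored TRIM59 and TRIM13 differed by 0.25 and -0.16. In the list of TRIM proteins that lack a RING domain, TRIM16 and TRIM44 were measured, as given above. TRIM29, a marker of squamous epithelium, lay below the threshold at 4.35 and 4.45. This list is not complete, and TRIM14 was counted among the antiviral genes only.

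RNF genes of the endoplasmic reticulum, which remove misfolded proteins and control sterol enzymes, had 7 of 9 named genes measured, with 4 higher, 3 lower and a median of 0.12. RNF121 (-0.40) was the lowest. The highest was RNF26 (0.34), or RNF185 (0.275) when the mean over probe sets was taken. The median turned to -0.03 without a threshold. RNF145, a sterol-responsive ligase, went from 8.79 to 8.91, and RNF139, its relative, from 6.27 to 6.40. RNF103 went from 7.34 to 7.15 and RNF170, a ligase of the inositol trisphosphate receptor, from 7.53 to 7.50. RNF183 and RNF186 lay below the threshold.

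The protease-associated transmembrane ligases had 4 of 7 named genes measured, with a median of 0.20 that turned to -0.09 when the 3 genes below the threshold were included. RNF167 (0.36), RNF13, an endosomal ligase (9.05 and 9.26), and RNF43, which removes Wnt receptors (6.29 and 6.48), were higher. RNF130 (6.55 and 6.46) was lower, and RNF133, RNF148 and RNF150 lay below the threshold. The RNF genes of immune and ubiquitin-chain signalling had all 8 named genes measured, with 6 higher, 1 lower and 1 equal and a median of 0.145. The higher ones were RNF41, RNF135, RNF166, RNF146, RNF115 (8.15 and 8.29) and RNF126, a quality control ligase (7.72 and 7.75). RNF213 was the lower one and RNF114 (8.62 on both arrays) the equal one. The siCONTROL value of RNF146, a ligase of poly-ADP-ribosylated proteins, lay just below the threshold (5.34, and 5.49 in siP62). Of the 8 immune and ubiquitin-chain genes, 5 lay above and 3 below the median of all genes. No measured gene of either list reached 1.5-fold (background 2.08% higher and 1.60% lower).

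RING-in-between-RING ligases, which pass ubiquitin through a cysteine of their own, had 6 of 7 named genes measured, with 3 higher, 3 lower and a median of 0.015, whose sign turned in 5 of 6 alternatives (-0.0125 to -0.09). RNF144B (0.39) and RNF144A (5.99 and 6.10) were higher with RNF31, and RNF19B (7.93 and 7.81), RNF216 and RNF14 were lower. Of 9 chromatin and DNA damage ligases in the list only 3 were named on the array, and these 3 were measured. RNF4, which targets SUMO-modified proteins, went from 7.75 to 7.94, RNF111, another such ligase, from 8.44 to 8.34, and RNF169, a reader of damage-induced ubiquitin, from 7.59 to 7.47. Of 11 MARCH genes in the list only 3 were named and 2 measured, and both measured ones were lower. MARCHF5, a ligase of the mitochondrial outer membrane, went from 8.37 to 8.16, with 54 of 395 genes of like level lower, and MARCHF9 from 5.45 to 5.23.

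**Figure D3:**
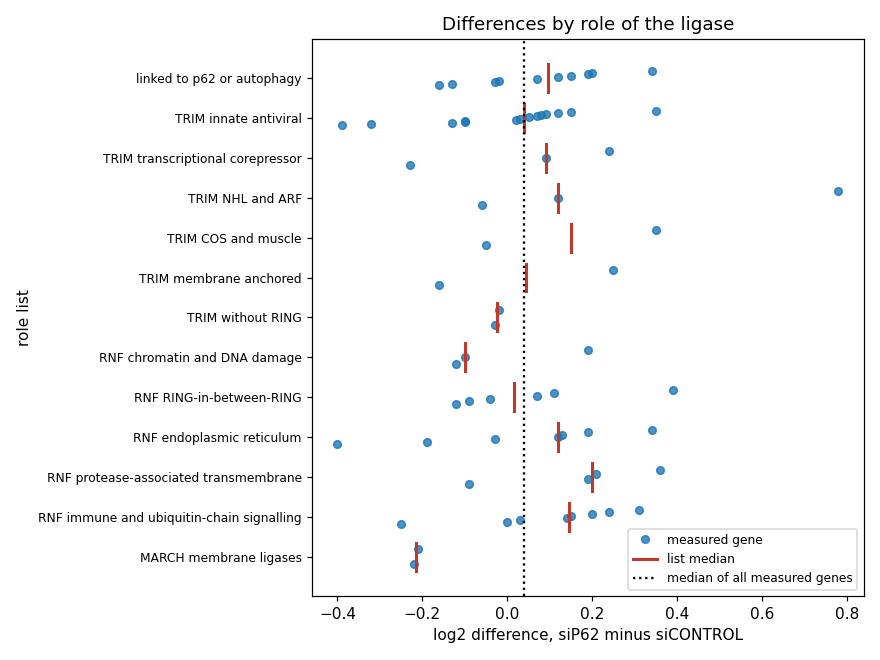
Log2 differences (siP62 minus siCONTROL) of the measured ligase genes are shown by role list, 1 point per gene, with the list median in red and the median of all measured genes, 0.04, as a dotted line. Points lie on both sides of the dotted line in every list except those of MARCH ligases and of TRIM proteins without a RING, and the highest point is TRIM2 at 0.78. A gene linked to p62 appears both there and in its role list.

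The 36 measured genes in no role list had a median of -0.035, with 15 higher, 19 lower and 2 equal. RNF6 was the only one past 1.5-fold (background 2.08% higher and 1.60% lower). TRIM37, a centrosome and peroxisome ligase, went from 9.35 to 9.49, and TRIM8, a regulator of p53 and STAT signalling, from 7.77 to 7.64. RNF7, the RING partner of cullin 5, went from 6.94 to 7.17. TRIM11 (6.20 and 6.39) and TRIM47 (8.05 and 8.24) each differed by 0.19.

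Several TRIM genes of the major histocompatibility complex region were read by many probe sets, some with identical values on both arrays, so those are not separate readings. All 8 probe sets of TRIM10, a TRIM gene of red cell development, had the same 4.06 in siCONTROL and 3.36 in siP62, below the threshold. The 5 probe sets of TRIM31 were all lower, by -0.26 to -0.74, with siCONTROL values from 5.63 to 5.92 and siP62 values from 5.16 to 5.62. The lowest difference, -0.74, came with a siP62 value of 5.16, below the threshold. Probe sets of the same gene on the same arrays are not replicates. Of the 8 probe sets of TRIM27, a ligase of endosomal sorting, 7 were lower and the differences ran from -0.20 to 0.11, with 6 distinct pairs of values. The 8 probe sets of TRIM40, a TRIM gene of the gut, ran from -0.39 to 0.07, and 7 were lower. TRIM31 was the only one of these genes that was measured and lower in every probe set.

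**Figure D4:**
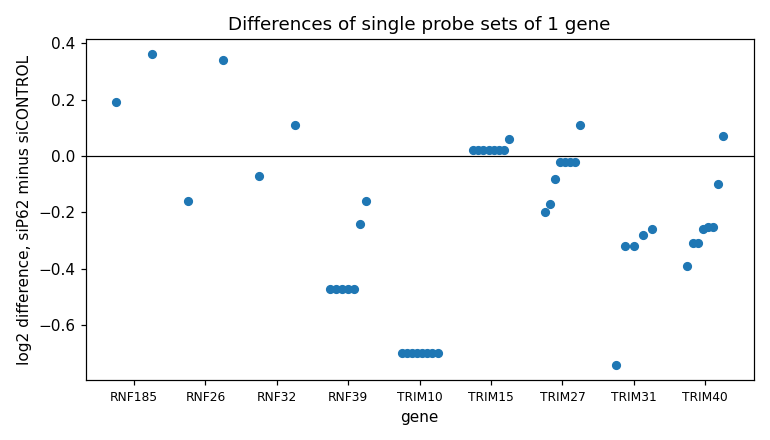
Log2 differences (siP62 minus siCONTROL) of each probe set are shown for the 9 ligase genes with more than 1 probe set, 1 point per probe set. The points of TRIM31 all lie below 0, those of RNF26 lie on either side of it, and the 8 points of TRIM10 share the value -0.70.

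The wider pathway was described by lists of other genes. Of 47 RING ligases with other names, 25 were named on the array and 23 measured. Of these, 13 were higher and 10 lower, with a median of 0.03 (-0.01 once the median of all genes was subtracted). None was past 1.5-fold (background 2.08% higher and 1.60% lower). The Notch ligand ligase MIB1 (8.38 and 7.86) and the inhibitor of apoptosis BIRC2 (6.23 and 6.56) were the extremes of these ligases. Of 35 genes for ubiquitin, E1 and E2 enzymes, 24 were named and 19 measured, with 14 higher, 5 lower and a median of 0.07. Against the median of all genes, 10 lay above and 8 below, and none was past 1.5-fold (the same background). UBE2D4, an E2 of the family that serves many RING ligases, went from 5.16 to 5.70, the first value below the threshold, and UBB, a polyubiquitin gene, from 6.83 to 6.46.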

How the data were processed

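Total RNA of A549 cells was read on 2 Affymetrix whole-transcript arrays, 1 per group. The deposited log2 values of 48226 probe sets were made by the authors with RMA and Transcriptome Analysis Console 4.0.2.15, per the submitters' processing notes. The genome build, and which arrays entered RMA, are not stated in the sources used here. RMA as commonly run makes array distributions alike, so a shift of all genes would not be seen.

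The platform annotation gave 1 symbol for 16098 probe sets, and the 32128 others were unnamed here. The members and lists were chosen with earlier results of these data known. Named were SQSTM1, the 12 highest and 12 lowest measured members with ties, the p62 list, the 2 members with the largest absolute difference of each role list, genes past 1.5-fold in the lists of other RING ligases and of ubiquitin, E1 and E2 (none passed), members whose probe sets differed by 0.4 or more, and those next to the threshold. Other genes named were chosen after their values were seen. With 1 array per group no test was run. The number of arrays limits the precision. The procedure was also run on simulated data, with changes larger than any ligase difference here and noise below the spread seen over all genes. That run therefore does not bear on differences of the size reported here. Python 3.11.15 with pandas 2.3.3 and statsmodels 0.14.6 was used. Alternatives were centring on the median or a lowess curve, quantile normalization, other thresholds and folds, and the mean over probe sets.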

Additional observations from a re-analysis of the deposited data

How the results depend on the processing

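Limits come first from the design, as 1 array per group gives no error for any difference and values near the threshold of 5.35 are not shown to be above background. No paired analysis was possible because each group held 1 array. None of the 47 named genes changed sign under both centrings or quantile normalization. A threshold cannot change a gene's own difference, and the mean over probe sets bears only on RNF26, RNF185, TRIM31 and TRIM40, where it changed no sign and made the largest shift, 0.25 for RNF26 (to 0.09).

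The median difference of the measured ligase genes, 0.025, turned to -0.015 with the median difference subtracted, -0.019 with a lowess curve subtracted, -0.015 with quantile normalization and -0.01 with no threshold. That of RING-in-between-RING ligases, 0.015, turned to -0.025, -0.020, -0.0125 and -0.04 in the same order and to -0.09 at the 70th percentile threshold. That of other RING ligases, 0.03, turned to -0.01, -0.0175 and -0.01 under both centrings and quantile normalization. Without a threshold the medians of the endoplasmic reticulum and the protease-associated transmembrane ligases, 0.12 and 0.20, turned to -0.03 and -0.09. Centring on the median lowers every difference by 0.04, the median of all measured genes. Without a threshold genes of low value enter the median, and the higher threshold removes genes from it. The cause of the other changes was not tested.

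The threshold at the 70th percentile left 51 measured ligase genes, 28 higher and 22 lower, with 1 (RNF6) at least 1.5-fold higher, as fewer genes pass it. No threshold gave 69 lower genes of 138 and 1 at least 1.5-fold lower, TRIM10, with 3 at least 1.5-fold higher. The count at least 1.5-fold higher became 0 at 2-fold and 8 beyond 0.32 on the log2 scale, where the count lower became 3. Over all 7896 measured genes, 164 were at least 1.5-fold higher and 126 lower. These counts became 85 and 82 at the 70th percentile, and 305 and 318 of all 14884 genes without a threshold. They became 127 and 154 with the median subtracted.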

Other observations

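Of the 46 ligase genes below the threshold, siCONTROL values ran from 2.27 to 5.24 and siP62 values from 2.01 to 5.34. Among them were TRIM43, TRIM49 and TRIM64, multicopy TRIM genes whose probes were not checked against their near-identical copies (2.74, 2.55 and 2.50 in siCONTROL), and RNF17, a germ cell gene (2.30 and 2.26). No fold is given for them.

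Among the noncoding transcripts named after ligase genes, RNF32-DT, a transcript that diverges from the start of RNF32, had a log2 value of 3.97 in siCONTROL and 4.83 in siP62, both below the threshold, while RNF32 lay at 6.05 and 5.98. The antisense transcript RNF213-AS1 lay at 5.07 and 4.88 and RNF213 at 10.01 and 9.76. RNF157-AS1 lay at 3.79 and 4.16 and RNF157 at 7.10 and 6.98. RNF216-IT1, an intronic transcript of RNF216, lay at 4.98 and 4.72, and RNF217-AS1 at 2.92 and 3.10, with RNF217 at 5.11 and 4.62. RNF126P1, a pseudogene, lay at 4.73 and 4.58 and RNF126 at 7.72 and 7.75. None of these noncoding transcripts was measured, and their differences were not tested.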
